A study of Sus scrofa with 30 samples.

Results

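Imprinted genes that act on growth were followed in 30 single pig embryos, 10 genes in all: IGF2, IGF2R, PEG3, PEG10, MEST, PLAGL1, PHLDA2, CDKN1C, GRB10 and SGCE. They were listed by symbol and matched to NCBI gene identifiers, and all 10 were among the 13103 genes of the table of all embryos. The mRNA of whole embryos, with embryonic disc and trophectoderm, was sequenced on Days 8, 10 and 12 after insemination, with 5 female and 5 male embryos on each day. The embryos came from cycle-synchronized German Landrace × Pietrain gilts, 4 gilts slaughtered on each day, all inseminated with semen of a single Pietrain boar. The embryos carried no treatment and no engineered allele, the gilt of each embryo was not labelled, and day and gilt cannot be told apart. The comparison of days asks how these genes change while the conceptus goes from a sphere to a filament, and that of sexes whether female and male embryos differ within a day.

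Imprinted genes are transcribed mainly from the copy inherited from one parent. In the mouse, where most of this is known, several genes read from the paternal copy promote growth (IGF2, PEG3, PEG10, MEST and PLAGL1), while several that are silent on the paternal copy in at least some tissues limit it (IGF2R, PHLDA2, CDKN1C and GRB10). SGCE, epsilon-sarcoglycan, lies beside PEG10 and was placed in neither class. Read counts per gene carry no allele information, so parental origin was not measured, and the class of each gene is background taken from other work. In RNA of whole embryos, fewer cells of a type and less RNA per cell cannot be told apart.

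Counts assigned to genes ran from 6068212 to 34002508 per embryo. Levels are given as CPM (counts scaled to library size) after TMM scaling, a scaling that evens out differences in library composition. No transcript lengths were at hand, so the levels of different genes were not ranked against each other. Of the 10 genes, 8 had more than 3 counts in every embryo. PLAGL1 had 3 counts or fewer in 8 embryos and SGCE in 5. Day 12 females d12_f_245 and d12_f_271 stood apart from the other 8 Day 12 embryos over all genes, with a mean distance to the rest of 139 and 120 against 86.6 to 108 (Euclidean, log2 CPM), and female d12_f_245 was the smallest library. Results of the day and sex comparisons that rest on them are given with and without both.

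A gene was called between days at an edgeR quasi-likelihood adjusted p (false discovery rate, FDR) under 0.001 with a log2 fold change beyond 1. From Day 8 to Day 10, 3 of the 10 genes rose (IGF2, PEG10 and SGCE) and 0 fell, where 9.88% of all genes rose and 4.2% fell. MEST and IGF2R were lower at an unadjusted p under 0.05, and DESeq2 and the robust GLM of edgeR called 0 falls as well, where 4.66% and 5.18% of all genes fell. From Day 10 to Day 12, 5 rose (PEG10, MEST, PLAGL1, GRB10 and SGCE) and 1, IGF2R, fell, where 14.9% of all genes rose and 8.39% fell. PEG10 and SGCE rose in both steps. PEG3 and PHLDA2 passed the call in neither step, nor did CDKN1C.

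**Figure D1:**
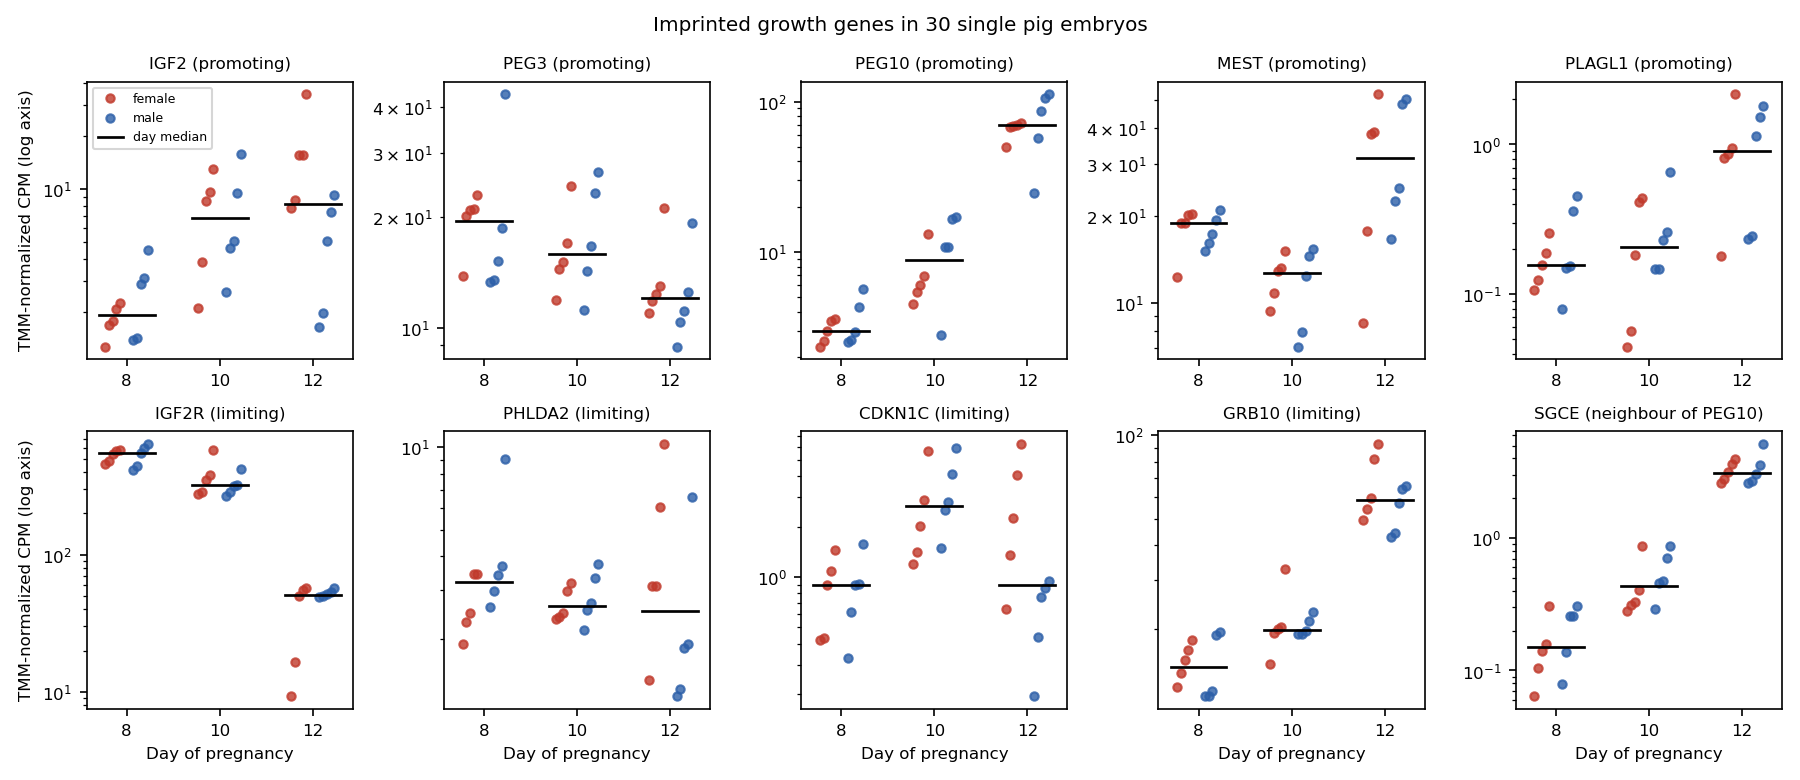
TMM-normalized CPM (log axis) of the 10 genes in each of 30 embryos by day of pregnancy, with 5 female and 5 male embryos a day. Bars are medians of the 10 embryos of a day. The Day 12 points of PEG10, SGCE and GRB10 lie above all Day 10 points and those of IGF2R below them.

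IGF2R, the receptor that takes up the growth factor IGF2 and delivers it to lysosomes for breakdown, fell most. Its level ran from 410 to 639 CPM on Day 8 (median 546), from 266 to 576 on Day 10 (median 319) and from 9.26 to 57.2 on Day 12 (median 50.7). Every Day 12 embryo lay below every embryo of the earlier days, while Days 8 and 10 overlapped. The means ± SD were 527 ± 75.2, 348 ± 94.2 and 44.8 ± 17.1 CPM (n = 10 embryos a day). Between Days 10 and 12 IGF2R fell 7.72-fold (log2 fold change -2.95, SE 0.22, edgeR adjusted p = 1.01e-12), and from Day 8 to Day 12 it fell 11.7-fold (-3.55, SE 0.23, adjusted p = 1.61e-14). The Day 8 to Day 10 change of -0.60 (SE 0.21, adjusted p = 0.0151) did not pass the call. The 2 lowest Day 12 values, 9.26 and 16.6 CPM, were those of females d12_f_245 and d12_f_271, and without both the change from Day 10 was -2.72, still called.

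IGF2, the ligand that IGF2R clears, rose early and varied widely. It ran from 1.27 to 4.53 CPM on Day 8 (median 1.93), from 2.09 to 15.8 on Day 10 (median 6.82) and from 1.64 to 34.7 on Day 12 (median 8.24). All 3 days overlapped, and the highest embryo of Day 12 held 21.2 times the level of the lowest. The rise from Day 8 to Day 10 was 3.35-fold (log2 1.74, SE 0.43, adjusted p = 0.000988, edgeR). That p lay just under the threshold of 0.001: leaving out any 1 of 21 of the 30 embryos in turn ended the call, all but d08_m_121, d10_f_317, d10_f_433, d10_m_318, d10_m_435, d12_f_271, d12_m_276, d12_m_286 and d12_m_307, with an adjusted p of at most 0.00305 and a log2 fold change of 1.55 to 1.91 over all 30 fits. The later change was 0.52 (SE 0.41, adjusted p = 0.281). It was -0.06 without females d12_f_245 and d12_f_271, and -0.58 in male embryos alone against 1.09 in female embryos alone. Over the whole span from Day 8 to Day 12 IGF2 rose 4.81-fold (log2 2.26, SE 0.44, adjusted p = 2.92e-05), but in males alone the change was 0.94 with an adjusted p of 0.151.

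PEG10, a gene derived from a retrotransposon and needed for the mouse placenta, gave the largest rise of the 10 genes over the 3 days. It ran from 2.35 to 5.67 CPM on Day 8 (median 2.97), from 2.81 to 17.1 on Day 10 (median 8.85) and from 24.8 to 112 on Day 12 (median 69.3). Days 8 and 10 overlapped, with Day 10 male d10_m_333 (2.81 CPM) and Day 10 females d10_f_336 and d10_f_315 (5.43) below the highest Day 8 embryo, and every Day 12 embryo lay above every earlier one. The rise was 2.85-fold from Day 8 to Day 10 (log2 1.51, SE 0.28, adjusted p = 3.21e-05) and 7.54-fold from Day 10 to Day 12 (2.92, SE 0.28, adjusted p = 1.62e-10), both by the edgeR test. Over both steps it came to 21.5-fold (4.42, SE 0.30, adjusted p = 5.05e-14).

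SGCE, a membrane glycoprotein of the sarcoglycan family, lies next to PEG10 on chromosome 9 of the Sscrofa11.1 assembly, with SGCE at 74402714 to 74473904 and PEG10 from 74474121 to 74486983. It ran from 0.0636 to 0.309 CPM on Day 8 (median 0.150), from 0.283 to 0.875 on Day 10 (median 0.433) and from 2.60 to 5.15 on Day 12 (median 3.12). The Day 8 values rest on few reads, and every Day 12 embryo lay above every earlier one. The edgeR test gave a rise of 2.69-fold (log2 1.43, SE 0.28, adjusted p = 7.52e-05) and then of 6.54-fold (2.71, SE 0.25, adjusted p = 1.17e-10). Over both steps SGCE rose by 4.14 (SE 0.28) on the log2 scale, beside 4.42 (SE 0.30) for PEG10.

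GRB10, an adaptor that binds the insulin and IGF1 receptors and dampens their signal, was the only limiting gene whose rise passed the call in this fit. It ran from 11.4 to 19.5 CPM on Day 8 (median 14.6), from 14.9 to 32.9 on Day 10 (median 19.8) and from 42.8 to 93.0 on Day 12 (median 58.2). Days 8 and 10 overlapped, and the Day 12 embryos all lay above them. The change of 0.49 (SE 0.14, adjusted p = 0.00478) from Day 8 to Day 10 was too small for the call. The later rise was 2.92-fold (log2 1.54, SE 0.14, edgeR adjusted p = 1.05e-10). On Day 12 its SD was 0.36 on the log2 scale, beside 0.90 for IGF2R. Without females d12_f_245 and d12_f_271, the lowest of the day in IGF2R, it was 0.36 beside 0.084 for IGF2R.

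MEST, a member of the alpha/beta hydrolase fold family, went down and then up. It ran from 12.3 to 21.0 CPM on Day 8 (median 18.8), from 7.08 to 15.4 on Day 10 (median 12.7) and from 8.52 to 52.3 on Day 12 (median 31.5). Each day overlapped the others. The first change of -0.59 (SE 0.23, adjusted p = 0.0272) did not pass the call, and the rise from Day 10 to Day 12 was 2.68-fold (log2 1.42, SE 0.23, edgeR adjusted p = 3.33e-06). That call was lost in female embryos alone (1.26, adjusted p = 0.00541) and in the test for changes beyond 1 on the log2 scale (adjusted p = 0.0517). The lowest Day 12 level, 8.52 CPM, was that of female d12_f_271. Over both steps MEST changed by 0.83 (SE 0.23, adjusted p = 0.00157), not called, and without females d12_f_245 and d12_f_271 by 1.03 (adjusted p = 1.38e-05), called. The annotated span of MEST on chromosome 18, from 18319126 to 18358655, overlaps that of COPG2, and it was not stated whether the counting used strand, so reads of the shared stretch cannot be told apart.

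PLAGL1, a zinc finger transcription factor, was near the detection limit until Day 12. It ran from 0.0790 to 0.453 CPM on Day 8 (median 0.155), from 0.0445 to 0.650 on Day 10 (median 0.205) and from 0.180 to 2.17 on Day 12 (median 0.904). The days overlapped, and the largest count in any embryo was 47. Between Days 10 and 12 it rose 3.68-fold (log2 1.88, SE 0.44, edgeR adjusted p = 0.000516). This call was lost without Day 10 females d10_f_315, d10_f_336 or d10_f_433, Day 10 males d10_m_318, d10_m_333 or d10_m_435, Day 12 female d12_f_245, or Day 12 males d12_m_249 or d12_m_307, each left out alone, with an adjusted p of at most 0.00148 and a log2 fold change no lower than 1.72. It was also lost in a fit of Days 10 and 12 alone (1.86, adjusted p = 0.00272), in female embryos alone (1.98, adjusted p = 0.0158), in male embryos alone (1.74, adjusted p = 0.0363) and in the test for changes beyond 1 (adjusted p = 0.0375). The rise from Day 8 to Day 12 was 4.75-fold (2.25, SE 0.45, adjusted p = 5.71e-05) and was not called in either sex alone or in the test beyond 1.

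PEG3, a zinc finger protein read from the paternal copy, declined without passing the call. It ran from 13.3 to 43.3 CPM on Day 8 (median 19.5), from 11.2 to 26.5 on Day 10 (median 15.9) and from 8.90 to 21.3 on Day 12 (median 12.1). All days overlapped. The log2 changes were -0.22 (SE 0.20, adjusted p = 0.356) and -0.42 (SE 0.20, adjusted p = 0.0733) for the earlier and the later step by the edgeR test. Day 12 against Day 8 gave -0.64 (SE 0.20, adjusted p = 0.00546), with a 95% interval of -1.03 to -0.24.

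CDKN1C, an inhibitor of cyclin-dependent kinases that holds cells in G1, peaked on Day 10. It ran from 0.329 to 1.58 CPM on Day 8 (median 0.891), from 1.20 to 5.88 on Day 10 (median 2.66) and from 0.193 to 6.24 on Day 12 (median 0.901). The 2 highest Day 12 values, 6.24 and 4.05 CPM, came from females d12_f_271 and d12_f_245, and the other 8 embryos reached 2.26 at most. The change to Day 10 was 1.80 (SE 0.46) with an edgeR adjusted p of 0.00151, just short of the call. DESeq2 and the robust GLM called it, as did the quasi-likelihood test when Day 12 female d12_f_271 (adjusted p = 0.000427) or Day 12 male d12_m_307 (adjusted p = 0.000757) was left out. The later change was -0.80 (SE 0.45, adjusted p = 0.126), and without females d12_f_245 and d12_f_271 it was -1.69 (adjusted p = 0.000498), called as a fall. The robust GLM (-1.37, adjusted p = 0.000818) and male embryos alone (-2.39, adjusted p = 0.000915) gave that call too, DESeq2 did not (-0.77), and in female embryos alone the change was 0.08 (adjusted p = 0.917).

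PHLDA2, a pleckstrin homology domain protein that restrains growth of the mouse placenta, showed no change past the call. It ran from 1.91 to 9.06 CPM on Day 8 (median 3.21), from 2.15 to 3.76 on Day 10 (median 2.62) and from 1.23 to 10.3 on Day 12 (median 2.52). The Day 10 values lay within the range of Day 8, and Day 12 spread beyond both. Day 12 against Day 8 gave a log2 change of 0.03 (SE 0.33, edgeR adjusted p = 0.945), with a 95% interval of -0.62 to 0.67, which holds changes of either sign. Its sign turned with the setting, to -0.46 without females d12_f_245 and d12_f_271 and to -0.29 with the robust GLM.

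**Figure D2:**
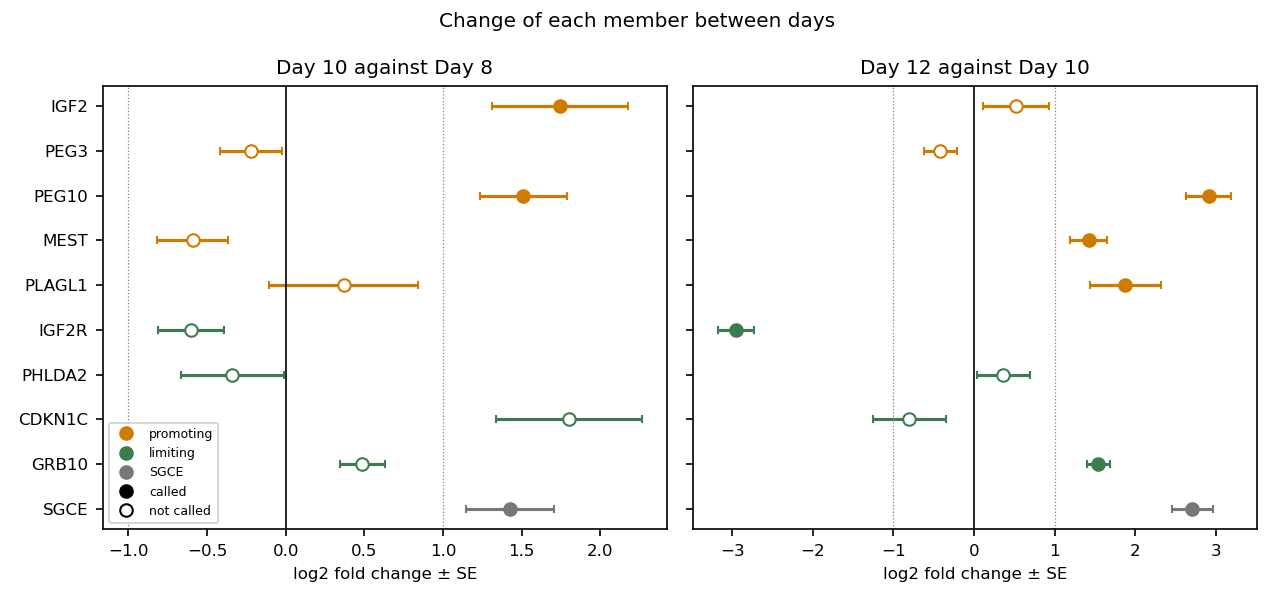
Log2 fold change ± SE (horizontal axes, edgeR quasi-likelihood fit of all 30 embryos) of the 10 genes from Day 8 to Day 10 and from Day 10 to Day 12. Filled points passed an FDR of 0.001 with a log2 fold change beyond 1 (dotted lines); 3 are filled for the first step and 6 for the second, of which IGF2R alone is negative.

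Ranges that did not overlap are counted over all genes too. Between Days 8 and 10 the 10 embryos of one day overlapped those of the other for all 10 genes, where 11.0% of all genes lay wholly higher and 11.0% wholly lower on Day 10. Between Days 10 and 12, PEG10, GRB10 and SGCE lay wholly higher and IGF2R wholly lower on Day 12, where 8.4% and 8.2% of all genes did so. Between Days 8 and 12 the same counts were 3 and 1, against 15.7% and 16.0%. Over both steps, 5 of the 10 genes rose past the call and 1 fell, against 22.0% and 10.4% of all genes (32.5% in either direction), and these comparisons share embryos with the step comparisons above.

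The classes moved unevenly. Of the 5 promoting genes, 2 rose from Day 8 to Day 10 (9.88% of all genes) and 3 from Day 10 to Day 12 (14.9%), and none of the 5 fell past the call in the edgeR fit, DESeq2 or the robust GLM. Their median log2 fold changes were 0.37 and 1.42, beside 0.03 and 0.04 over all genes. Of the 4 limiting genes, 0 changed from Day 8 to Day 10 by the edgeR test. For these 4 the adjusted p was under 0.05 for IGF2R, CDKN1C and GRB10, and CDKN1C was called by DESeq2 and the robust GLM. From Day 10 to Day 12, 1 limiting gene rose and 1 fell, where 14.9% of all genes rose and 8.39% fell. With the robust GLM, in male embryos alone and without females d12_f_245 and d12_f_271, 2 limiting genes fell, IGF2R and CDKN1C, beside 9.2%, 6.36% and 8.45% of all genes. DESeq2 called 1 fall, beside 8.69% of all genes. The medians of the limiting genes were 0.07 and -0.22 for the steps.

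A difference of levels was formed in each embryo as the mean log2 CPM of the 5 promoting genes minus that of the 4 limiting ones. It was -1.73 ± 0.32 on Day 8, -1.61 ± 0.22 on Day 10 and 0.19 ± 0.62 on Day 12 (mean ± SD, n = 10 embryos a day). The Day 12 embryos ran from -0.74 to 0.99, all above the highest Day 10 embryo at -1.29. With medians over the genes in place of means the difference was -1.0 ± 0.48, 0.23 ± 0.38 and 0.31 ± 0.51, and Days 10 and 12 then overlapped. With SGCE among the promoting genes it was -2.37, -2.14 and -0.097. The promoting mean went from 1.87 to 2.32 and 3.45 log2 CPM, and the limiting mean from 3.61 to 3.93 and 3.26. IGF2R carried much of the level of the limiting class: without it the difference was 0.07 ± 0.40, -0.12 ± 0.26 and 0.87 ± 0.85, and the Day 12 embryos, from -0.69 to 1.93, then overlapped those of both earlier days. No test was made, since the genes of both classes were chosen and their levels depend on gene length.

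**Figure D3:**
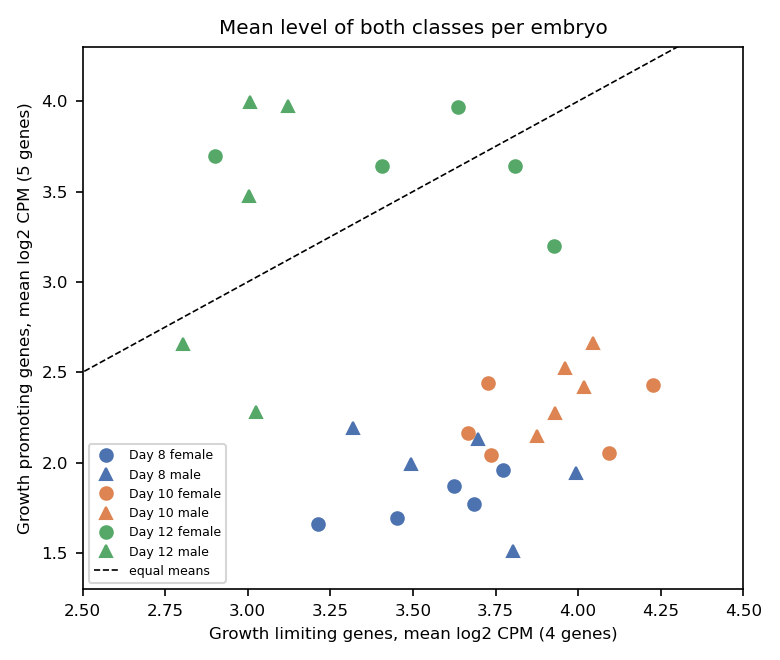
Mean log2 CPM of the 5 growth promoting genes (vertical axis) against that of the 4 growth limiting genes (horizontal axis) in each of 30 embryos, by day (colour) and sex (shape). The 20 embryos of Days 8 and 10 lie below the dashed line of equal means, and the Day 12 embryos lie on both sides of it.

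Within a day, some of these genes varied more between embryos than most genes did. On Day 12 the SD of log2 CPM was 1.36 for CDKN1C, 1.31 for IGF2, 1.11 for PLAGL1 and 1.05 for PHLDA2, where the median gene had 0.45. CDKN1C and IGF2 stood at percentiles 96.7 and 96.2 of all genes in that spread. SGCE (0.31), GRB10 (0.36) and PEG3 (0.39) lay below the median gene. Without females d12_f_245 and d12_f_271 the SD was 1.10 for IGF2, 0.95 for PLAGL1, 0.92 for CDKN1C and 0.80 for PHLDA2 beside 0.31 for the median gene. SGCE, GRB10 and PEG3 (0.33 to 0.36) then lay just above it. IGF2R went from 0.90 (percentile 86.4) with all 10 embryos to 0.084 (percentile 1.18). Both females held the lowest IGF2R levels of the day, so leaving them out lowers its SD by that choice. On Day 8 the steadiest was IGF2R, with an SD of 0.21 beside 0.23 for the median gene. On Day 12 PLAGL1 rested on 3 to 47 counts per embryo and CDKN1C on 5 to 104.

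Female and male embryos were compared within each day, with a call at an FDR under 0.05. PLAGL1 and SGCE were not in the tables of Days 8 and 10, so 8 genes could be tested there and 10 on Day 12. By the edgeR quasi-likelihood test 0 of these genes passed on each of the 3 days, where 0.658%, 0.223% and 0.123% of all genes did. At an unadjusted p under 0.05 the counts were 0, 0 and 2, beside 4.59%, 2.36% and 22.7% of all genes. DESeq2 called 0, 0 and 1, the robust GLM 0 on each day, and the fit of all 6 groups 0, 0 and 2. Over all genes DESeq2 called 1.13%, 0.454% and 1.18% on the 3 days, the robust GLM 1.37%, 0.36% and 0.827%, and the 6-group fit 0.275%, 0.214% and 20.3%, so on Day 12 the 2 of 10 in the 6-group fit stood at the share of all genes. The 10 embryos of a day came from 4 gilts, so littermates were among them, also across the sexes.

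The genes with an unadjusted p under 0.05 on Day 12 were CDKN1C and IGF2. CDKN1C was at 0.648, 1.36, 2.26, 4.05 and 6.24 CPM in the females and at 0.193, 0.436, 0.760, 0.858 and 0.943 CPM in the males. The sexes overlapped through female d12_f_299, the lowest female. The log2 difference, female over male, was 2.22 (SE 0.63, edgeR adjusted p = 0.198), DESeq2 gave an adjusted p of 0.0451 and the 6-group fit, which called 20.3% of all genes, 0.0135. Without females d12_f_245 and d12_f_271 it was 1.16 (adjusted p = 0.627).

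IGF2 on Day 12 was at 7.77, 8.71, 15.6, 15.7 and 34.7 CPM in the females and at 1.64, 1.98, 5.07, 7.39 and 9.27 CPM in the males. The sexes overlapped between 7.77 and 9.27 CPM. The log2 difference was 1.74 (SE 0.56, edgeR adjusted p = 0.198), with an adjusted p of 0.0255 in the same 6-group fit and 0.0585 by DESeq2. Without females d12_f_245 and d12_f_271 it was 1.08 (adjusted p = 0.627). On the earlier days it was -0.54 (SE 0.33) and -0.04 (SE 0.55).

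Whether the sex difference itself changed between days was tested in the 6-group fit. For 0 of the 10 genes did it pass an FDR of 0.05 between any pair of days in the edgeR test, where 0.0% of all genes passed, and DESeq2 called 0 of the 10 as well, beside 0.00763%, 0.206% and 2.63% of all genes for Day 10 minus Day 8, Day 12 minus Day 10 and Day 12 minus Day 8. At an unadjusted p under 0.05 the counts were 0 for Day 10 minus Day 8, 2 for Day 12 minus Day 10 and 3 for Day 12 minus Day 8, beside 0.763%, 18.9% and 21.8% of all genes. The largest was CDKN1C, with 2.53 (SE 0.77, adjusted p = 0.192) between Days 10 and 12. Females d12_f_245 and d12_f_271 held the highest Day 12 levels of CDKN1C, and these contrasts were not fitted without them.

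Females d12_f_245 and d12_f_271 both lay outside the other 8 embryos of the day for IGF2R and CDKN1C among the 10 genes. IGF2R was at 9.26 and 16.6 CPM against 49.4 to 57.2 in the other 8, and CDKN1C at 4.05 and 6.24 against 0.193 to 2.26. PHLDA2 was at 10.3 and 6.06 CPM against 1.23 to 6.58. MEST was at 17.7 and 8.52 against 16.6 to 52.3, so 1 of the 2 lay within the others. PEG10, at 69.0 and 67.2 CPM, and SGCE, at 3.18 and 3.96, lay inside the range of the other 8, as did GRB10, at 59.5 and 82.2. PLAGL1 went opposite ways, being highest of the day in female d12_f_245 at 2.17 CPM and lowest in female d12_f_271 at 0.180. PEG3 was highest in female d12_f_245 at 21.3 CPM and at 11.8 in female d12_f_271, against 8.90 to 19.4 in the others. IGF2 was highest in female d12_f_271 at 34.7 CPM, while 15.6 in female d12_f_245 lay within the others.

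Marker levels in the same pair of embryos were set beside the range of the other 8. The values given for female d12_f_271 lay outside that range, while those of female d12_f_245 lay partly inside it. The 9 trophectoderm markers summed to 24003 and 34763 CPM in them, against 11347 to 23620 in the other 8. Without the keratins KRT8, KRT18 and KRT19 the sums were 1014 in female d12_f_245 and 1403 in female d12_f_271, against 641 to 1318. CDX2 was at 90.4 CPM in female d12_f_245 and 186 in female d12_f_271 (45.3 to 98.1 in the others), and GATA3 at 463 and 437 (169 to 355). The 8 hypoblast markers summed to 1906 CPM in female d12_f_245 and 867 in female d12_f_271, against 1058 to 3742. The 6 epiblast markers summed to 465 and 1231 CPM against 284 to 891, of which DPPA5 made up 97.8% over the 10 embryos. The other 5 summed to 51.9 CPM in female d12_f_245 and 11.2 in female d12_f_271, against 1.76 to 8.95. UTF1 alone made up most of the sum in female d12_f_245, at 47.9 CPM. NANOG, SOX2 and PRDM14 reached at most 0.143, 0.0387 and 0.0538 CPM in any Day 12 embryo. The part of these cell types in the levels above was not tested.

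**Figure D4:**
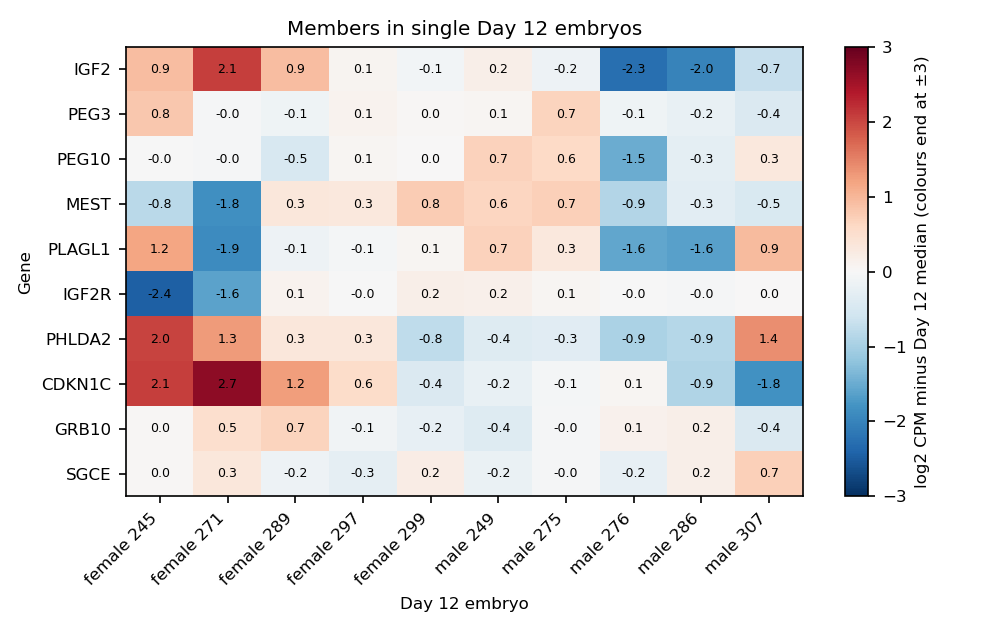
Log2 CPM of the 10 genes (rows) in each of 10 Day 12 embryos (columns) minus the Day 12 median of the gene, as colour and number. Females d12_f_245 and d12_f_271 show IGF2R at -2.4 and -1.6 and CDKN1C at 2.1 and 2.7, while PEG10 and SGCE in them lie near the median.

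Cell type markers also moved between days over the whole set. Among all genes, 9.88% rose and 4.2% fell from Day 8 to Day 10. The shares were 14.9% and 8.39% from Day 10 to Day 12, and 22.0% and 10.4% from Day 8 to Day 12. The trophectoderm list had 9 of 9 markers in the table, with summed levels of 21621 to 26532 CPM on Day 8, 36272 to 53796 on Day 10 and 11347 to 34763 on Day 12. The keratins KRT8, KRT18 and KRT19 made up 94.8% to 98.2% of these sums. From Day 8 to Day 10, 3 trophectoderm markers rose (KRT8, KRT19 and ELF5) and no other was called, and from Day 10 to Day 12, 2 rose (GATA3 and TFAP2A) and 3 fell (CDX2, KRT8 and KRT18). All 6 epiblast markers were in the table, and from Day 10 to Day 12 4 of them fell, with SOX2 reaching a mean of 0.00678 CPM and NANOG 0.0480, while DPPA5 stood at 511 CPM. From Day 8 to Day 12, DPPA5 rose and the other 5 fell. Of the 8 hypoblast markers 6 rose from Day 10 to Day 12, and the sum of the 8 went from 405 to 756 CPM to 867 to 3742. COL4A1 had the highest Day 12 mean of them (1232 CPM). GATA6 fell past the call from Day 8 to Day 10 (log2 -1.36) and was not called from Day 10 to Day 12 (-0.32). Of 8 mesoderm markers 3 were in the table, and their sum, 584 to 1852 CPM on Day 12, was nearly all HAND1. HAND1 rose from Day 10 to Day 12 (log2 3.79), while T (-4.89) and EOMES (-6.01) fell, all past the call. Uterine epithelium markers (3 of 6 in the table) summed to at most 75.9 CPM and blood cell markers (3 of 7) to at most 18.4 in any embryo. The part of these shifts in the changes of the imprinted genes was not tested.

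The partners of IGF2 and GRB10 in insulin and IGF signalling were read from a list of 43 genes, 36 of them in the table. From Day 8 to Day 10, 5 rose and 1 fell, where 9.88% of all genes rose and 4.2% fell. The median log2 fold change was 0.20, beside 0.03 over all genes. IGF1R, the receptor that signals for IGF2 and IGF1, went from 14.1 ± 4.24 to 57.5 ± 23.3 CPM (log2 2.02, SE 0.21, edgeR adjusted p = 2.31e-09) and stood at 43.9 ± 11.9 on Day 12. IRS1, the docking protein of the receptor, rose by 2.07 (SE 0.24), IGFBP5, an IGF binding protein, by 2.16 (SE 0.27), and FOXO1, a transcription factor restrained by the pathway, by 1.84 (SE 0.29).

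From Day 10 to Day 12, 9 of the 36 rose and no other was called by the edgeR test. Over all genes 14.9% rose and 8.39% fell. The median of the list was 0.05, beside 0.04 over all genes. IGF1, the other ligand, went from 9.37 ± 4.35 to 59.3 ± 37.0 CPM (log2 2.66, SE 0.44, edgeR adjusted p = 5.36e-06). PAPPA, a protease that frees IGF from its binding proteins, went from 2.25 ± 0.721 to 23.1 ± 16.8 CPM (3.37, SE 0.37). STC1, an inhibitor of that protease, was at 0.0462 CPM on Day 10 and at 3.09 ± 2.42 on Day 12, and IGFBP7 rose by 3.09 (SE 0.28).

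Around CDKN1C, 15 of 17 listed cell cycle genes were in the table. From Day 8 to Day 10, 2 rose and 1 fell, where 9.88% of all genes rose and 4.2% fell. From Day 10 to Day 12 the counts were likewise 2 and 1, beside 14.9% and 8.39% of all genes. CDKN1A, another inhibitor of cyclin-dependent kinases, went from 3.44 ± 2.60 to 12.4 ± 4.51 and 92.7 ± 41.8 CPM and was called in both steps (log2 1.86, SE 0.32, and 2.90, SE 0.32). Of the D-type cyclins, CCND1 rose by 4.55 (SE 0.26) to a mean of 47.0 CPM on Day 12, while CCND3 fell by 1.36 (SE 0.12) on the log2 scale. CDKN1B rose by 1.21 (SE 0.08) and the kinase CDK6 fell by 1.14 (SE 0.21) on the log2 scale in the earlier step.

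Other genes known as imprinted or lying in imprinted loci were read from a list of 48, of which 28 were in the table. From Day 8 to Day 10, 6 rose and 3 fell, where 9.88% of all genes rose and 4.2% fell. From Day 10 to Day 12, 7 rose and 5 fell, beside 14.9% and 8.39% of all genes. The medians were 0.47 and 0.07, beside 0.03 and 0.04 over all genes. TFPI2, a protease inhibitor, went from 0.327 ± 0.187 to 9.08 ± 3.88 CPM in the first step (log2 4.79, SE 0.41). NAPEPLD, a phospholipase, fell by 2.35 (SE 0.18) on the log2 scale, from 54.0 ± 11.3 to 10.6 ± 3.09 CPM. L3MBTL1 rose by 2.56 (SE 0.32) and ZIM2, which starts within 500000 bases of PEG3 on chromosome 6, fell by 2.49 (SE 0.46) on the log2 scale.

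In the later step the largest falls of the list were those of KCNQ1 and ASCL2 and the largest rise that of GNAS. KCNQ1, a potassium channel subunit, went from 51.2 ± 11.0 to 0.110 ± 0.0763 CPM (log2 -8.67, SE 0.20, edgeR adjusted p = 2.97e-25). ASCL2, a transcription factor of mouse trophoblast, went from 30.8 ± 4.63 to 0.796 ± 1.33 CPM (-5.28, SE 0.49). GNAS, the stimulatory G protein subunit, rose from 66.5 ± 14.8 to 406 ± 84.1 CPM (2.61, SE 0.16), and SLC22A18 by 2.55 (SE 0.49). COBL was named through the whole span from Day 8 to Day 12 (3.45, SE 0.79).

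**Figure D5:**
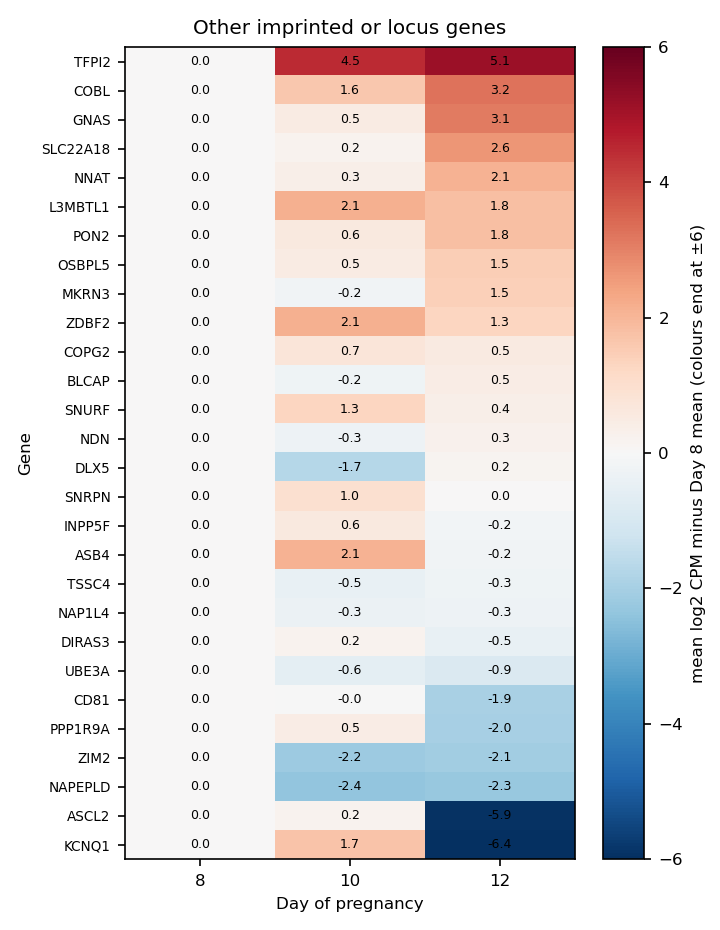
Mean log2 CPM of 28 other imprinted or locus genes on Days 8, 10 and 12 minus the Day 8 mean, as colour (ending at 6 either way) and number. TFPI2 is highest and KCNQ1 and ASCL2 lowest on Day 12.

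Of 13 factors that establish or keep imprints, 11 were in the table. ZFP57, the zinc finger protein that holds methylation at imprinted regions, fell from 106 ± 10.8 to 66.8 ± 10.8 and 18.3 ± 7.62 CPM, with the later step called (log2 -1.86, SE 0.20, edgeR adjusted p = 1.84e-09). UHRF1, which brings the maintenance methyltransferase to DNA, rose by 1.47 (SE 0.13) in that step, and NLRP7 fell by 2.04 (SE 0.48) on the log2 scale. DPPA3 fell by 1.89 (SE 0.27) in the earlier step. KHDC3L rose over the whole span (4.90, SE 0.68). In all, DPPA3 alone was called from Day 8 to Day 10 by the edgeR test, where 9.88% of all genes rose and 4.2% fell. From Day 10 to Day 12, 1 rose and 2 fell, beside 14.9% and 8.39% of all genes. Methylation itself was not measured.

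Genes within 500000 bases of a member were set beside it. CDKN1C, at 2019391 to 2022092, and PHLDA2, at 2057679 to 2058675, lie on chromosome 2, as does IGF2, at 1469183 to 1496417. Of the 14 tested neighbours of CDKN1C, 3 rose and 4 fell from Day 10 to Day 12, where 14.9% of all genes rose and 8.39% fell. Of the 10 neighbours of IGF2, 1 rose and 4 fell, the same 4 genes as around CDKN1C, since the windows overlap. They include ASCL2, KCNQ1 and the tetraspanin CD81 (-1.84). PPP1R9A, one of the 3 tested neighbours of PEG10, fell by 2.42 on the log2 scale, and CASD1, on the other side of SGCE, changed by -0.66 without a call. Of the 8 neighbours of IGF2R, 2 fell with it (PNLDC1, -2.03, and SOD2, -1.53). Of the 5 neighbours of MEST, COPG2 gave -0.16 (edgeR adjusted p = 0.321) for the same step.

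The genes whose pattern over the 30 embryos was most like that of each member were found by the root mean square difference of centred log2 CPM. GRB10 was matched most closely by MESDC1 (0.27) and RXRA, a retinoid receptor (0.30), and PEG3 by MSANTD2 (0.24) and PNISR (0.29). IGF2R was nearest to GALNT11 (0.52), which went from 861 to 504 and 52.4 CPM. PEG10 was nearest to GOLM1 (0.70) and BST2 (0.70), SGCE to RASSF3 (0.48) and ZNRF1 (0.49), and MEST to GLG1 (0.41) and FAM117B (0.42). For IGF2 the nearest was RHBDD2 (0.60), for PLAGL1 PHLDB1 (0.57), for PHLDA2 PSMG3 (0.43) and for CDKN1C TRIM7 (0.77). No member was the nearest match of another by construction, since members were left out of the search.

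Within a day, 3 pairs were followed over the 10 embryos, which gives 9 relations, each with a two-sided permutation p and adjustment over the 9. PEG10 and SGCE, neighbours on the chromosome, had Pearson's r of 0.25, -0.068 and 0.27 on Days 8, 10 and 12 (permutation p = 0.484, 0.852 and 0.439) and Spearman's rho of 0.22, 0.15 and 0.055. CDKN1C and PHLDA2 had r of -0.052, -0.57 and 0.48 (p = 0.899, 0.0883 and 0.164, permutation) and rho of -0.38, -0.47 and 0.42. IGF2 and IGF2R had r of -0.18, 0.34 and -0.54 (p = 0.623, 0.344 and 0.102, permutation) and rho of 0.0061, 0.21 and -0.10. No relation passed, the smallest adjusted p being 0.459 for r and 0.835 for rho. Without the 2 embryos farthest from the median of the first gene, r on Day 12 was 0.25, -0.19 and -0.39 for the pairs in that order. For IGF2 and IGF2R this kept female d12_f_245, the lowest of the day in IGF2R. The r without both females d12_f_245 and d12_f_271 was not computed.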

How the data were processed

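The mRNA of 30 single embryos was sequenced as stranded single-end libraries. The authors trimmed the reads, aligned them to the Sscrofa11.1 assembly using NCBI gene models and dropped genes below a minimum CPM. The deposited values are unnormalized read counts for each NCBI gene, in a table of all embryos (13103 genes) and tables of Day 8 (11405), Day 10 (11675) and Day 12 (12220). The aligner, the counting tool and its strand setting are not given in the sources used here. The submitters' processing notes name edgeR. Embryos were grouped by day and sex as labelled; the gilt of each embryo was not labelled, but with 10 embryos from 4 gilts a day littermates were among them, within and across the sexes, and p-values measure the spread between these embryos.

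Day comparisons used the table of all embryos in 1 fit of 3 day groups, sex comparisons the table of the day, and interactions a fit of 6 groups, all with the edgeR 4.0.16 quasi-likelihood F test (robust, TMM factors, Benjamini-Hochberg adjustment over all genes of the table) in R 4.3.3. The SE is the log2 fold change over the square root of F, and 95% intervals use it. Levels are TMM-scaled CPM, log2 levels have a prior count of 2, and 3 counts were taken as the floor, from 0.0823 to 0.434 CPM per embryo, which covers counting error only. DESeq2 1.42.0 and limma 3.58.1, with scipy 1.17.1, matplotlib 3.10.9, pandas 2.3.3 and numpy 2.4.6 under Python 3.11.15, served the alternatives, tables and figures. Permutations drew 100000 resamples. The test was checked on simulated counts.

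All 10 genes were named, with at most the 4 called genes of largest change per list and day comparison and the 2 genes nearest in pattern to each member. Neighbours, marker values in single embryos and values in females d12_f_245 and d12_f_271 were given after they were seen. The members and lists were chosen with earlier results of these data known. Alternatives were the robust GLM, DESeq2, RLE factors, library size alone, filters of 10 counts in 5 embryos or 1 CPM on average, a term for sex, a fit of the 2 days compared or of 1 sex (female or male embryos alone), a test for changes beyond 1 on the log2 scale, different prior counts and leaving out each embryo. No sequence is printed, as no genome or sequence table was used.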

Additional observations from a re-analysis of the deposited data

Results flagged for a closer look

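Each of the 10 genes was looked at in the 10 embryos of a day and the 5 of a day and sex, 90 groups in all, for an embryo far from the rest by Dixon's ratio. Chance marks about 1 group in 20, and 10 groups were marked. The groups overlap, since the 5 embryos of a day and sex are among the 10 of the day. PEG3 in d08_m_103 and PHLDA2 in d08_m_136 were each marked in both, so the marks are not separate cases.

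PEG3 in Day 8 male d08_m_103 was at 43.3 CPM, against 13.3 to 23.0 in the other Day 8 embryos and up to 18.8 in the other Day 8 males. In Day 8 female d08_f_105 PEG3 was at 13.9 CPM, below 20.2 to 23.0 in the other females. In Day 12 female d12_f_245 it was at 21.3 CPM, above 11.0 to 13.0 in the other females of that day.

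PEG10 was at 2.81 CPM in Day 10 male d10_m_333 against 10.8 to 17.1 in the other males, and at 49.9 CPM in Day 12 female d12_f_289 against at least 67.2 in the other females. MEST was at 12.3 CPM in Day 8 female d08_f_124 against 18.8 to 20.3 in the other females.

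PHLDA2 was at 9.06 CPM in Day 8 male d08_m_136, against 1.91 to 3.67 in the other Day 8 embryos and 2.61 to 3.67 in the other males. In Day 12 male d12_m_307 PHLDA2 was at 6.58 CPM against 1.23 to 1.92 in the other males. No gene was marked in the same embryo as another, and IGF2, IGF2R, CDKN1C, GRB10, PLAGL1 and SGCE were not marked in any group. The ratio sets the gap next to the most extreme embryo against the range, so 2 embryos extreme together can go unmarked. For IGF2R, Day 12 females d12_f_245 and d12_f_271 were such a pair, at 9.26 and 16.6 CPM against 49.4 to 57.2 in the other 8.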

How the results depend on the processing

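No paired analysis was possible because embryo numbers are unique to each embryo and no groups share one. The fits without Day 12 females d12_f_245 and d12_f_271 and the class difference without IGF2R were chosen after seeing the data. Where a value changed, the cause was not tested, including in fits of fewer embryos.

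Members called from Day 8 to Day 10 were 3, but 0 in female embryos alone, 0 in male embryos alone and 0 in a test for changes beyond 1 on the log2 scale, and 2 to 4 with each embryo left out. From Day 10 to Day 12 they were 5 to 6 and from Day 8 to Day 12 6 in every such fit. IGF2 lost its Day 8 to Day 10 call under 7 of 12 settings. IGF2R, GRB10, PEG10 and SGCE kept their Day 10 to Day 12 calls under all 12 settings and all 30 fits with an embryo left out. Between sexes 0 members were called in every fit with an embryo left out, and on Day 12 the fit of 6 groups called 2 and DESeq2 1.

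Over all genes, the Day 8 to Day 10 count of 1845 became 977 in females, 1067 in males and 675 in the test beyond 1 (1669 to 1939 with an embryo left out). That of Day 10 to Day 12, 3050, became 2003 in males and 1574 beyond 1 (2963 to 3083), and that of Day 8 to Day 12, 4255, became 2403 beyond 1 (4147 to 4348). The sex counts of 75, 26 and 15 became 156, 42 and 101 with the robust GLM, and with DESeq2 1.72 times as many on Day 8 and 53 and 144 on the later days. The fit of 6 groups gave 36 on Day 8 and 2658 on Day 12. With an embryo left out they were 44 to 70, 13 to 23 and 14 to 16. Interactions went from 0 to 1, 27 and 345 with DESeq2. Library size alone moved the median log2 fold change of all genes to -0.15 and 0.24 and the higher against lower calls to 1027 and 811 (with TMM 1295 and 550) and to 2396 and 891 (with TMM 1951 and 1099) for the earlier and later step.

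The sign turned for members that were not called. IGF2 from Day 10 to Day 12 was -0.58 in males and -0.060 without the 2 females. PHLDA2 in that step was -0.15 with the robust GLM, -0.17 in males and -0.12 without the 2, and from Day 8 to Day 12 -0.29, -0.76 and -0.46 in that order, and -0.26 to 0.31 with an embryo left out. MEST lost its Day 10 to Day 12 call under 2 settings and PLAGL1 under 4, and CDKN1C gained one under 3. CDKN1C was 0.080 from Day 10 to Day 12 in females and -0.44 from Day 8 to Day 12 in males. The sex difference of PHLDA2 on Day 12 was -0.012 without the 2 females. The class difference was -1.0, 0.23 and 0.31 on the 3 days by medians, -2.37, -2.14 and -0.097 with SGCE among the promoting genes, which turns the Day 12 sign, and 0.075, -0.12 and 0.87 without IGF2R, while leaving out an embryo gave -1.80 to -1.67, -1.65 to -1.56 and 0.10 to 0.29. PLAGL1 had no value under the filter of 1 CPM on average, and depth limits PLAGL1 and SGCE before Day 12.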

Other observations

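INS, the insulin gene, lies beside IGF2 on chromosome 2 at 1496842 to 1498052. It was at 0 counts in every Day 8 embryo and averaged 0.00361 CPM on Day 10 and 1.13 CPM on Day 12. It was singled out after its values were seen, and reads that run from one gene into the other cannot be told apart in these counts.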
